A study of Saccharomyces cerevisiae with 8 samples.

Results

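The genes that encode the enzymes of amino acid biosynthesis in *Saccharomyces cerevisiae* were examined in RNA-Seq data from cells lacking *RRP6*. The set was chosen by gene name and holds 52 genes of the arginine, histidine, leucine, lysine, tryptophan, branched-chain, shikimate, threonine, serine, asparagine and ammonia assimilation pathways. Of these, 51 have an open reading frame transcript (ORF-T) among the 5753 ORF-Ts and 10054 annotated transcripts counted, and *LEU2* (YCL018W) was not analysed here. The compared groups were 4 replicates of *rrp6Δ* cells, in which *RRP6* is deleted, and 4 replicates of wild-type (WT) cells. The study's methods give both strains as isogenic to BY4741 and take the *rrp6Δ* strain from the yeast knockout collection, so that each genotype is a single line, and grow both in YPD, a rich medium that supplies amino acids, to an OD600 of 0.8. BY4741 is a haploid MATa strain that carries deletions at *HIS3*, *LEU2*, *MET17* and *URA3* in both groups. The study describes its replicates as biological, and the labels, which call each a prep, do not say whether preps were separate cultures. The p-values measure the spread between these libraries.

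Rrp6 is a 3′ to 5′ exonuclease associated with the nuclear RNA exosome. It trims sn/snoRNAs and degrades cryptic unstable transcripts (CUTs) and transcripts that escape termination by Nrd1-Nab3-Sen1. Transcription of amino acid biosynthesis genes in yeast answers to general amino acid control, in which starvation raises translation of the activator Gcn4 from an mRNA with upstream open reading frames. Gcn4 binds DNA that holds TGACTC, often followed by A, in the promoters of genes of many of these pathways. Pathway regulators act beside it, among them Leu3 in leucine synthesis, Lys14 in lysine synthesis and the GATA factors Gln3 and Gat1 in nitrogen assimilation.

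The Gcn4-type letters are shared by most of the set. Windows running from 250 bases before to 50 bases after the start of the RefSeq gene, which is the start codon in this annotation, were read from the R64 (sacCer3) genome and searched on both strands. TGACTC was found in the windows of 31 of 51 members (60.8%) and of 479 of 6001 RefSeq genes (7.98%). The longer TGACTCA, which contains TGACTC, was found in 21 members (41.2%) and in 2.73% of all genes. Among members whose ORF-T was called lower in *rrp6Δ*, 10 of 15 held TGACTC, and among members that were not called 21 of 36 did. It was present in all 3 serine genes, in both asparagine genes, in 6 of 7 histidine genes, in 3 of 7 lysine genes and in 0 of 3 ammonia assimilation genes. TCCNNNGGA, the core bound by Lys14, was found in 3 of 7 lysine genes, in 5 members in all and in 3.40% of all genes. The Leu3 motif, CCG and CGG separated by 4 bases, was found in 3 members and in 1.45% of all genes, and GATAAG in 10 members and in 14.7% of all genes. Such matches describe letters only. The windows around TGACTC are printed for genes that were called lower (*HIS4*, *HIS7*, *THR1*, *SER1*, *SER2*, *ASN1*) and for 2 lysine genes that were not. Each is 30 bases on the strand of the gene, and capitals mark TGACTC or its reverse complement.
HIS4, chrIII:68515-68544, minus strand: acccatgcacagTGACTCacgtttttttat
HIS7, chrII:716592-716621, minus strand: ttcatgagaaaaGAGTCAgacatcgaaaca
THR1, chrVIII:159325-159354, plus strand: aaatttgtgcaaGAGTCAtcatctcgaaaa
SER1, chrXV:679161-679190, plus strand: gcccaaaagtagTGACTCtttctaagcatc
SER2, chrVII:911716-911745, plus strand: ccgagaaagaaaGAGTCAatactaataatc
ASN1, chrXVI:822381-822410, plus strand: tcatgtaacattTGACTCattctgtaaact
LYS2, chrII:474103-474132, minus strand: gtttttcgcgtgTGACTCaatgtcgaaata
LYS12, chrIX:187773-187802, minus strand: atattcttaagaTGACTCtaattagaggaa

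Total counts lay between 8761140 and 12666126 in *rrp6Δ* libraries and between 6904004 and 11298227 in WT libraries. Normalized counts are CPM values computed from the library size scaled with TMM, edgeR's trimmed mean of M values, and they are relative to the other RNA of the library. Lower RNA per cell and a rise of the remaining RNA therefore cannot be told apart, and neither can fewer cells with a transcript and less of it per cell. *RRP6* (YOR001W) had 60, 31, 42 and 16 raw counts in *rrp6Δ* libraries, against 1787, 1030, 754 and 660 in WT libraries, and its log2 fold change was -5.37. *HIS3* (YOR202W), imidazoleglycerol-phosphate dehydratase, had 83, 36, 55 and 29 raw counts in *rrp6Δ* libraries, against 55, 39, 46 and 50 in WT libraries. This deleted marker was thus read at a low level in all 8 libraries, and its annotation shares 24.5% of its length with the ORF-T YOR203W on the same strand. *URA3* (YEL021W), orotidine-phosphate decarboxylase and likewise a deleted marker, had 69, 62, 103 and 86 raw counts in *rrp6Δ* libraries, against 103, 92, 68 and 49 in WT libraries. This marker, too, was read in all 8 libraries. *LYS2* (YBR115C), which BY4741 keeps intact, had normalized counts of 370.1, 209.7, 187 and 146 in *rrp6Δ* libraries, against 245, 153, 173 and 146 in WT libraries. Of the remaining members, *ARG3* (YJL088W) was barely read, with 23, 11, 20 and 0 raw counts in *rrp6Δ* libraries and 4, 3, 6 and 5 in WT libraries, and 50 of 51 members had more than 3 counts in every library.

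No amino acid biosynthesis ORF-T was called higher in *rrp6Δ*, and 15 were called lower. Calls were made with edgeR's quasi-likelihood test at a fold of 1.5 or more, an unadjusted p under 0.05 and an FDR, adjusted over all transcripts, of 0.1 or less. The 15 are 29.4% of the 51 measured members, against 14.3% of all ORF-Ts called lower and 2.09% called higher. DESeq2 called 14 members lower and 0 higher, against 818 and 127 of the 5753 ORF-Ts. At an unadjusted p under 0.05, 21 members were lower and 0 were higher. The share of all ORF-Ts at that cutoff was not counted, and the median ORF-T was itself lower. All 4 *rrp6Δ* libraries were below all 4 WT libraries for 12 members (23.5%), against 13.8% of ORF-Ts, and above them for 0 members, against 1.63% of ORF-Ts. The median log2 fold change was -0.49 over the members and -0.32 over the other ORF-Ts, a difference of -0.17, and 30 members lay below the median of all ORF-Ts and 21 above it. The difference was nearer to 0 without *rrp6Δ* replicate 4 (-0.07) or WT replicate 3 (-0.04), and its range over the fits that left out a library was -0.22 to -0.04. With a library left out, further members passed as lower. These were *ARG4* and *ARO1* without *rrp6Δ* replicate 1, *BAT1*, *ILV1* and *ILV3* without *rrp6Δ* replicate 3, *ARG4*, *HOM3* and *ILV3* without WT replicate 2, and *HIS5* without WT replicate 4.

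These counts depend on how the libraries were scaled, because the median ORF-T was itself lower in *rrp6Δ*. When ORF-Ts alone set the TMM factors, the median of all ORF-Ts was -0.02, a shift of 0.303. On that scale 8 members (15.7%) were called lower, against 2.66% of ORF-Ts, and 2 members (3.92%) were called higher, against 3.81% of ORF-Ts. The 8 were *ARG1*, *HIS7*, *BAT2*, *THR1*, *SER1*, *SER2*, *GDH1* and *GLN1*, and the 2 were *LYS12* and *LYS20*. With the replicate number as a block, 18 members were called lower, against 19.4% of ORF-Ts, and 0 higher, against 2.62%. The block added *ARG4*, *BAT1* and *HOM3* to the 15. With the block and ORF-T factors together, 8 were called lower, against 4.85% of ORF-Ts, and 3 higher, against 5.32%.

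**Figure D1:**
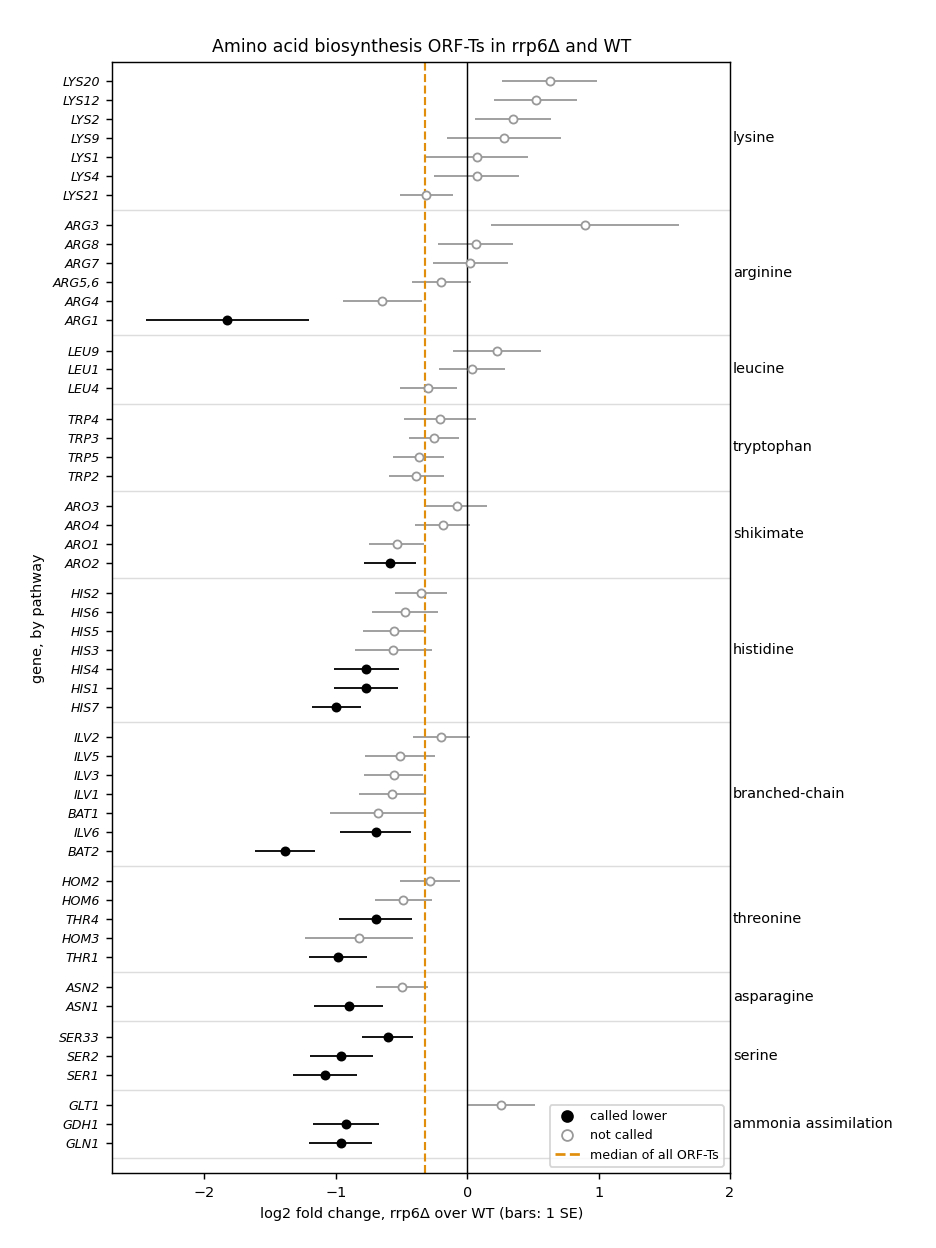
Log2 fold change, *rrp6Δ* over WT, of the 51 members by pathway (points, with bars of 1 SE), under TMM over all transcripts, where filled points are the 15 called lower and the dashed line is the ORF-T median of -0.32. All 7 lysine genes lie to the right of the dashed line. To its left lie all 3 serine genes and all 7 histidine genes, among them the deleted marker *HIS3*.

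All 3 serine synthesis genes of the set were called lower in *rrp6Δ*, with a median log2 fold change of -0.96. *SER3*, the isozyme of *SER33*, is outside the set and was not called (-0.07). *SER1* (YOR184W), phosphoserine aminotransferase, had normalized counts of 129, 155, 161 and 241 in *rrp6Δ* libraries, against 406, 323, 445 and 283 in WT libraries. The groups did not overlap, and the log2 fold change was -1.08 ± 0.24 (SE, adjusted p = 0.00561, edgeR). *SER2* (YGR208W), phosphoserine phosphatase, had 23.5, 35.8, 32.4 and 27.6 in *rrp6Δ* libraries, against 56.9, 66.6, 72.8 and 34.97 in WT libraries. WT replicate 4 was below *rrp6Δ* replicate 2, so these groups overlapped, and the log2 fold change was -0.96 ± 0.24 (SE, adjusted p = 0.0106, edgeR). The *SER2* call was lost with the minimum of 10 counts (-0.73) and with library totals (-0.57). *SER33* (YIL074C), a 3-phosphoglycerate dehydrogenase that opens the pathway, had 66.7, 77.5, 77.5 and 109 in *rrp6Δ* libraries, against 119, 116, 133 and 134 in WT libraries, and fell by 0.60 on the log2 scale. Its call was lost without *rrp6Δ* replicate 1 (-0.46), *rrp6Δ* replicate 2 (-0.58), *rrp6Δ* replicate 3 (-0.57), WT replicate 3 (-0.58) or WT replicate 4 (-0.50). The *SER33* call was also lost with filterByExpr (-0.58), the minimum of 10 counts (-0.39), ORF-T factors without (-0.31) or with the block (-0.32) and library totals (-0.26). The 3 genes together took between 0.0516% and 0.0764% of ORF-T counts in *rrp6Δ* libraries, against 0.0791% to 0.0978% in WT libraries, a share that does not depend on the scaling of the libraries. The *SER1* annotation shares 59.7% of its length with the ORF-T YOR183W on the same strand, so their reads cannot be told apart.

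The ammonia assimilation genes were split. *GLN1* (YPR035W), glutamine synthetase, had normalized counts of 351, 191, 281 and 326 in *rrp6Δ* libraries, against 613, 429, 584 and 613 in WT libraries, with no overlap and a log2 fold change of -0.96 ± 0.24 (SE, adjusted p = 0.00962, edgeR). *GDH1* (YOR375C), the NADP-dependent glutamate dehydrogenase that makes glutamate, had 239, 380.3, 259 and 405 in *rrp6Δ* libraries, against 612, 594, 769 and 458 in WT libraries. These did not overlap either, and the log2 fold change was -0.92 ± 0.25 (SE, adjusted p = 0.015, edgeR). With library totals neither *GLN1* (-0.60) nor *GDH1* (-0.56) was called. The *GDH1* call was also lost with the minimum of 10 counts (-0.71). *GLT1* (YDL171C), glutamate synthase, was not called and had a log2 fold change of 0.26.

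Of the asparagine synthetase isozymes, *ASN1* (YPR145W) was called lower. It had normalized counts of 408, 217, 354 and 333 in *rrp6Δ* libraries, against 699, 498, 798 and 453 in WT libraries, with no overlap and a log2 fold change of -0.90 ± 0.26 (SE, adjusted p = 0.0219, edgeR). The *ASN1* call was lost with ORF-T factors (-0.60), the minimum of 10 counts (-0.68) and library totals (-0.51). *ASN2* (YGR124W) had 522, 508, 579 and 639 in *rrp6Δ* libraries, against 860.3, 769, 821 and 724 in WT libraries. These groups did not overlap either, but its log2 fold change of -0.50 was under the required fold.

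In histidine synthesis all 7 genes had log2 fold changes below 0, with a median of -0.56, and 3 were called lower. That median is the value of *HIS3*, the deleted marker that was read at a low level. *HIS7* (YBR248C), imidazole glycerol phosphate synthase, had normalized counts of 88.3, 82.2, 76.0 and 71.3 in *rrp6Δ* libraries, against 190.2, 155, 164 and 125 in WT libraries. Every WT library was above every *rrp6Δ* library, and the log2 fold change was -0.997 ± 0.188 (SE, adjusted p = 0.00212, edgeR). The *HIS7* call was lost with library totals (-0.62). *HIS1* (YER055C), the ATP phosphoribosyltransferase of the first step, and *HIS4* (YCL030C), which encodes a trifunctional enzyme, each fell by 0.77 on the log2 scale. Neither was called with ORF-T factors, without or with the block, with the minimum of 10 counts or with library totals. *HIS4* was also not called without WT replicate 1 (-0.67) or WT replicate 3 (-0.58). The other 4 genes, *HIS2* (-0.35), *HIS3* (-0.56), *HIS5* (-0.56) and *HIS6* (-0.47), were not called.

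Threonine synthesis had the called genes at its end. *THR1* (YHR025W), homoserine kinase, had normalized counts of 18.7, 17.1, 20.5 and 19.0 in *rrp6Δ* libraries, against 29.7, 33.9, 32.1 and 53.4 in WT libraries. The *rrp6Δ* values lay close together and below every WT value, and the log2 fold change was -0.98 ± 0.22 (SE, adjusted p = 0.00561, edgeR). The *THR1* call was lost with library totals (-0.64). *THR4* (YCR053W), threonine synthase, fell by 0.69 on the log2 scale. This call was lost without *rrp6Δ* replicate 1 (-0.69), *rrp6Δ* replicate 2 (-0.54), *rrp6Δ* replicate 4 (-0.68), WT replicate 3 (-0.75) or WT replicate 4 (-0.30). It was also lost with the minimum of 10 counts (-0.48), ORF-T factors without (-0.39) or with the block (-0.34) and library totals (-0.37). The upstream genes *HOM3* (YER052C, aspartate kinase, -0.82), *HOM2* (YDR158W, aspartate-semialdehyde dehydrogenase, -0.28) and *HOM6* (YJR139C, homoserine dehydrogenase, -0.49) were not called, and *HOM3* was called with the block. *HOM2* shares 82.4% of its annotation with the ORF-T YDR157W on the same strand.

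All 7 branched-chain genes had log2 fold changes below 0, with a median of -0.57, and 2 were called lower. *BAT2* (YJR148W), the cytosolic branched-chain aminotransferase, had normalized counts of 79.7, 61.3, 44.3 and 79.9 in *rrp6Δ* libraries, against 168, 219.9, 144 and 161 in WT libraries. The lowest WT library was well above the highest *rrp6Δ* library, and the log2 fold change was -1.39 ± 0.23 (SE, adjusted p = 0.00112, edgeR). *BAT2* and *SER1* were the members that stayed called lower in all 15 alternative fits, which changed the tool, the scaling, the filter or the block or left out each library in turn. *ILV6* (YCL009C), the regulatory subunit of acetolactate synthase, fell by 0.69 on the log2 scale. It was not called without *rrp6Δ* replicate 1 (-0.53), *rrp6Δ* replicate 2 (-0.61), *rrp6Δ* replicate 4 (-0.72), WT replicate 3 (-0.47) or WT replicate 4 (-0.57). Nor was it called with the minimum of 10 counts (-0.48), ORF-T factors without (-0.39) or with the block (-0.37) or library totals (-0.33). The catalytic subunit *ILV2* (-0.20), threonine deaminase *ILV1* (-0.57) and dihydroxyacid dehydratase *ILV3* (-0.56) were not called. *ILV5* (YLR355C), acetohydroxyacid reductoisomerase, had the highest level of the set, 577 normalized counts per kilobase in *rrp6Δ* and 824 in WT, and a log2 fold change of -0.51. Its normalized counts were 662, 893, 1104 and 767 in *rrp6Δ* libraries, against 1167, 1091, 1722 and 910.0 in WT libraries, and the groups overlapped.

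In the shikimate pathway, which leads to the aromatic amino acids, 2 of 4 genes had every *rrp6Δ* library below every WT library, against 13.8% of ORF-Ts. *ARO2* (YGL148W), chorismate synthase, was the called gene of 4 in the shikimate pathway, and its fall of 0.59 on the log2 scale was just past the required fold. The call was absent in 11 of the 15 alternative fits. These were DESeq2 (-0.57), filterByExpr (-0.56), the minimum of 10 counts (-0.37), ORF-T factors without (-0.29) or with the block (-0.28) and library totals (-0.22). It was also absent without *rrp6Δ* replicate 1 (-0.49), *rrp6Δ* replicate 2 (-0.55), *rrp6Δ* replicate 3 (-0.56), WT replicate 1 (-0.53) or WT replicate 3 (-0.50). The pentafunctional *ARO1* (YDR127W) had normalized counts of 328, 196, 234 and 254 in *rrp6Δ* libraries, against 410.3, 330.3, 374 and 355 in WT libraries. These groups did not overlap, but the log2 fold change of -0.54 was under the required fold, and it was called lower without *rrp6Δ* replicate 1. The 4 tryptophan genes of the set ranged from -0.39 for *TRP2* to -0.21 for *TRP4*, and 0 were called or had an unadjusted p under 0.05. *TRP1* (YDR007W), which is outside the set, was at 0.22 and was not called.

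In the arginine pathway a single library carried the largest difference of the set. *ARG1* (YOL058W), argininosuccinate synthetase, had normalized counts of 42.7, 18.8, 27.2 and 14.1 in *rrp6Δ* libraries, against 52.2, 250.3, 30.5 and 32.7 in WT libraries. WT replicate 2 was far above every other library, and *rrp6Δ* replicate 1 was above WT replicates 3 and 4. The log2 fold change was -1.83 ± 0.62 (SE, adjusted p = 0.0429, edgeR). Without WT replicate 2 it was -0.58 and not called (adjusted p = 0.23, edgeR). The call was also lost without *rrp6Δ* replicate 2 (-1.70) or *rrp6Δ* replicate 4 (-1.54), with the minimum of 10 counts (-1.60) and with the block and ORF-T factors together (-0.97). *ARG4* (YHR018C), argininosuccinate lyase, had a log2 fold change of -0.65 and was called with the block. *ARG5,6* (-0.20), *ARG7* (0.02) and *ARG8* (0.06), which act in the ornithine branch, were not called, and *ARG3*, ornithine carbamoyltransferase, had the lowest level of the set, 0.887 normalized counts per kilobase in *rrp6Δ* and 0.506 in WT.

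Leucine synthesis had 0 of 3 measured genes called or at an unadjusted p under 0.05, with *LEU1* (YGL009C), isopropylmalate isomerase, at 0.04 and the α-isopropylmalate synthase genes *LEU4* and *LEU9* at -0.30 and 0.23. Relative to other ORF-Ts the 3 genes together were higher, at 0.149% to 0.184% of ORF-T counts in *rrp6Δ* libraries, against 0.0999% to 0.137% in WT libraries, with no overlap. This share is a sum with no test. Over all 51 members the share was 1.92% to 2.36% in *rrp6Δ* libraries and 1.90% to 2.22% in WT libraries, which overlapped.

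The lysine genes stood on the other side of the ORF-T median. Their median log2 fold change was 0.28, 6 of 7 were above 0, all 7 were above the median of all ORF-Ts, and 0 were called, or had an unadjusted p under 0.05, under TMM over all transcripts. *LYS12* (YIL094C), homoisocitrate dehydrogenase, had normalized counts of 295, 266, 168 and 94.6 in *rrp6Δ* libraries, against 179, 148, 143 and 104 in WT libraries. *LYS20* (YDL182W), a homocitrate synthase, had 26.6, 18.9, 17.97 and 6.70 in *rrp6Δ* libraries, against 8.80, 14.1, 8.44 and 14.3 in WT libraries. In both genes *rrp6Δ* replicate 4 was below every other *rrp6Δ* library and below every WT library, and the groups overlapped. The log2 fold changes were 0.52 ± 0.32 for *LYS12* and 0.63 ± 0.36 for *LYS20* (SE), and neither passed. With ORF-T factors they were 0.85 (adjusted p = 0.0834, edgeR) and 0.95 (adjusted p = 0.0836, edgeR), both called higher. Without *rrp6Δ* replicate 4 they were 0.81 and 0.94 under TMM over all transcripts and were called higher as well, with *ARG3* as the third such member. *LYS2*, α-aminoadipate reductase, was at 0.35 and was called higher when the block and ORF-T factors were combined (0.60). Leaving out *rrp6Δ* replicate 1, the highest *rrp6Δ* library for both genes, gave 0.41 for *LYS20* and 0.07 for *LYS2*. Neither was called in that fit, which used TMM over all transcripts. The remaining genes, *LYS9* (0.28), *LYS4* (0.07), *LYS1* (0.07) and *LYS21* (-0.31), were not called.

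**Figure D2:**
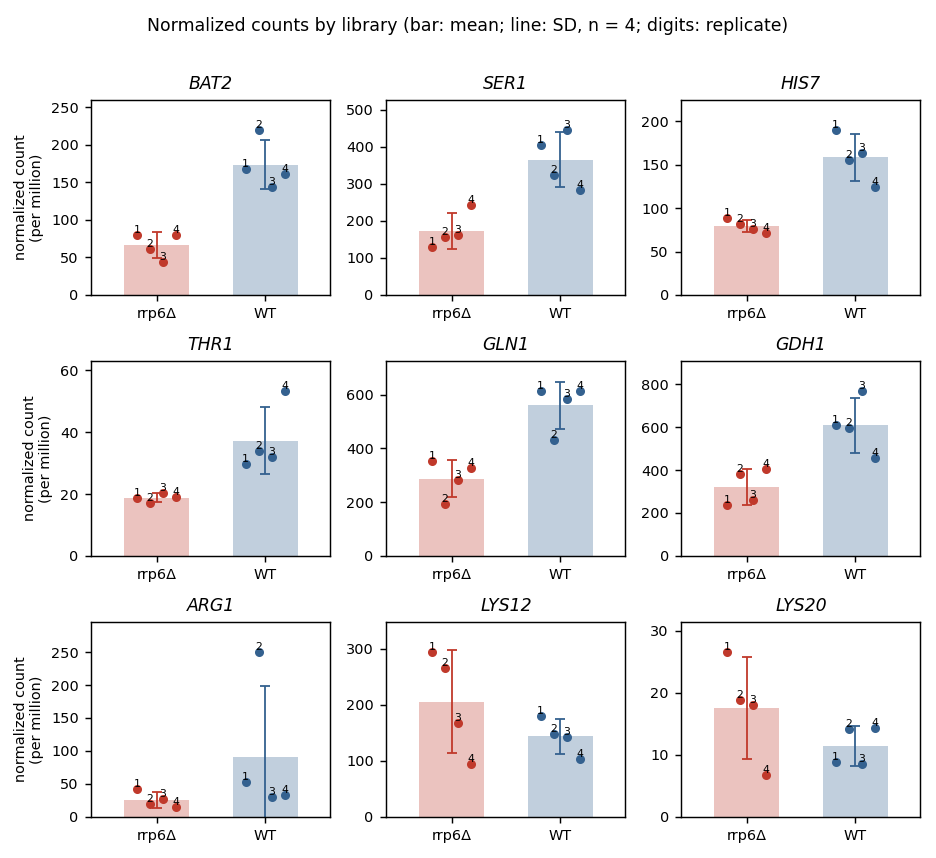
Normalized counts (CPM) in each library for 9 members, with *rrp6Δ* on the left and WT on the right of each panel (bars: mean; lines: SD, n = 4; digits: replicate number; the lower SD line of *ARG1* in WT is cut at 0). *BAT2*, *SER1*, *HIS7*, *THR1*, *GLN1* and *GDH1* do not overlap between strains, WT replicate 2 stands alone for *ARG1*, and *rrp6Δ* replicate 4 is the lowest library for *LYS12* and *LYS20*.

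Several steps are catalysed by isozymes from paralogous genes, and the log2 ratio of the counts of each pair within a library does not depend on scaling. None of the 7 pairs passed in two-sided exact permutation tests over 70 arrangements, in which the smallest possible p is 0.0286 and the libraries are not matched by number. Exact p-values lay between 0.143 and 0.8, and between 0.367 and 0.8 after Benjamini-Hochberg adjustment over the 7 pairs. The groups overlapped in every pair. For the homocitrate synthases *LYS20* over *LYS21* the ratio was 0.12, 0.25, -0.55 and -1.70 in *rrp6Δ* libraries, against -1.65, -0.85, -1.70 and -1.02 in WT libraries. The difference of the means was 0.84 ± 0.49 (SE), and *rrp6Δ* replicate 4 lay with the WT libraries. For the branched-chain aminotransferases, mitochondrial *BAT1* over cytosolic *BAT2*, the ratio was -0.32, 0.00, 1.77 and -0.10 in *rrp6Δ* libraries, against -0.97, -1.20, 0.76 and -0.24 in WT libraries. It was higher in *rrp6Δ* at all 4 replicate numbers, by between 0.14 and 1.19, and the mean difference was 0.75 ± 0.65 (SE), or ± 0.23 with the libraries matched by number.

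For the asparagine synthetases, *ASN1* over *ASN2*, the ratio was lower in *rrp6Δ* at all 4 replicate numbers, with a mean difference of -0.40 ± 0.24 (SE), or ± 0.14 when matched. The same held for *LEU4* (YNL104C) over *LEU9* (YOR108W), with -0.52 ± 0.37 (SE), or ± 0.12 when matched. Each of these 3 had an exact sign-flip p of 0.125 over the matched libraries, the smallest that 4 matched pairs allow, so that this test could not pass at 0.05. The glutamate dehydrogenases *GDH1* over *GDH3* (YAL062W), where *GDH3* is the isozyme known for growth on non-fermentable carbon, differed by -1.04 ± 0.67 (SE). The 3-phosphoglycerate dehydrogenases *SER33* over *SER3* (YER081W) differed by -0.67 ± 0.51 (SE), and the DAHP synthases *ARO3* (YDR035W) over *ARO4* (YBR249C) by 0.08 ± 0.25 (SE). The coding sequences of the pairs are between 74.7% and 93.4% identical, highest for *LYS20* and *LYS21*, so some reads may have been assigned to the wrong gene of a pair. The remaining genes of the pairs were not called in the fit without the block. *LYS21* (YDL131W) had normalized counts of 24.4, 15.9, 26.4 and 21.9 in *rrp6Δ* libraries, against 27.7, 25.5, 27.7 and 29.1 in WT libraries. *LEU4* had 121, 79.8, 161 and 117 in *rrp6Δ* libraries, against 135, 140.2, 154 and 159 in WT libraries, and *LEU9* had 214, 79.9, 169 and 95.7, against 170.0, 80.8, 139.6 and 86.6.

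Values of *ARO3* were 181, 99.4, 176 and 111 in *rrp6Δ* libraries, against 144, 170.4, 129.8 and 156 in WT libraries, and values of *ARO4* were 171, 131, 204 and 213, against 173, 205, 233 and 208. *BAT1* (YHR208W) had 63.8, 61.2, 151 and 74.5 in *rrp6Δ* libraries, against 86.0, 95.9, 243 and 136 in WT libraries. In both strains replicate 3 had by far the most *BAT1* counts. Its log2 fold change was -0.68, not called without the block, and called with it (-0.66, adjusted p = 0.00153, edgeR) or without *rrp6Δ* replicate 3 (-1.08). *SER3* had 134, 128, 150.4 and 86.6 in *rrp6Δ* libraries, against 99.8, 244, 80.8 and 99.8 in WT libraries, and *GDH3* had 38.9, 78.9, 18.3 and 19.4, against 32.5, 62.5, 17.6 and 22.8.

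**Figure D3:**
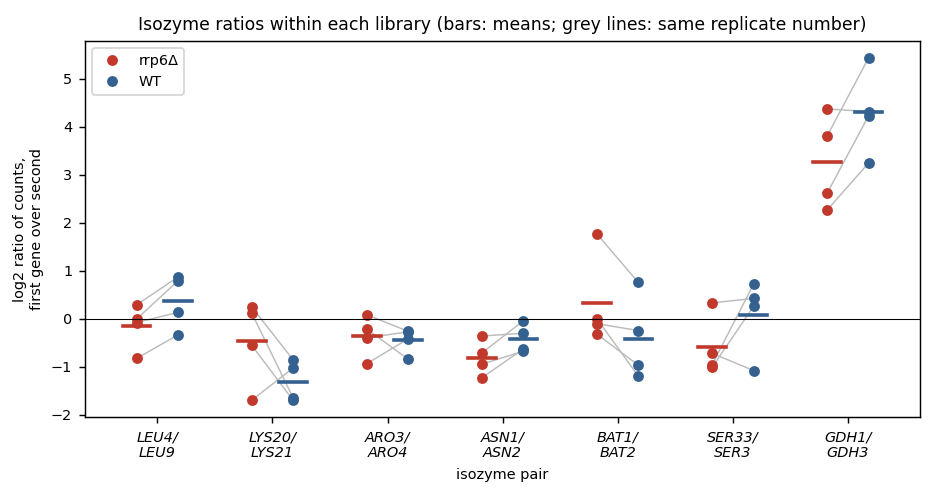
Log2 ratio of the counts of each isozyme pair within each library, with *rrp6Δ* to the left of WT (points: libraries; bars: means of 4; grey lines join libraries with the same replicate number). Points of the strains overlap in all 7 pairs, and all 4 grey lines run the same way for *LEU4*/*LEU9*, *ASN1*/*ASN2* and *BAT1*/*BAT2*.

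Noncoding transcripts beside these genes were next examined. Classes counted beside the ORF-Ts were CUTs, stable unannotated transcripts (SUTs), Nrd1 unterminated transcripts (NUTs), antisense transcripts (AST) and Ssu72-restricted transcripts (SRTs). The sn/snoRNAs and extended sn/snoRNA transcripts (RT) were counted as noncoding too. The AST and RT classes were annotated by the authors on these samples and are no independent evidence of a rise. The study describes CUTs as a class that depends on *rrp6Δ* for detection, so a rise of CUTs is no independent evidence either. Of all noncoding transcripts counted, 57.0% were called higher in *rrp6Δ*. Beside the members, overlapping them or reaching into the 500 bases upstream on the same strand, there were 48, of which 31 were called higher and 0 lower. An antisense transcript called higher overlapped 14 of 51 members (27.5%), against 22.4% of all ORF-Ts. The 14 had a median log2 fold change of -0.52 and 5 were called lower, and the other 37 had a median of -0.47 and 10 were called lower. Over all ORF-Ts, 17.4% of those with such an antisense transcript and 13.4% of those without were called lower, with medians of -0.39 and -0.30.

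The antisense transcript over *SER1* was the most abundant of those that rose over a member named for its change. SNR36-RT, the extended form of a snoRNA transcribed toward *SER1*, covers all of it. It had 603, 636, 721 and 574 raw counts in *rrp6Δ* libraries, against 19, 42, 26 and 15 in WT libraries, and a log2 fold change of 4.06. CUT853 (5.01) and the antisense annotation of YOR184W (4.66) lie inside the same span and share its reads. NUT1428 also covers *SER1* on the opposite strand. It had 7020, 7139, 9123 and 4849 raw counts in *rrp6Δ* libraries, against 6276, 12668, 5338 and 4034 in WT libraries. Its log2 fold change was -0.59 and it was not called. NUT1428 reaches base 680999 of the chromosome, past SNR36-RT, which ends at base 680668. In the study's own comparison mature snR36 had nearly as many reads, so NUT1428 counts do not give the antisense level over *SER1*. The *SER1* window printed above ends before SNR36-RT. Opposite *HIS7*, NUT0059 had 34, 24, 24 and 22 raw counts in *rrp6Δ* libraries, against 5, 3, 3 and 4 in WT libraries (log2 fold change 2.20), and it runs over the TGACTC letters of the *HIS7* window. Opposite *GLN1*, NUT1500 had 482, 357, 425 and 250 raw counts in *rrp6Δ* libraries, against 113, 75, 64 and 35 in WT libraries (log2 fold change 1.87), and overlaps 122 bases of the gene. Opposite *ARG1*, SUT768 was at 0.84. Neither *BAT2* nor *THR1* had a noncoding transcript annotated beside it.

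A rise of an antisense transcript was also measured over members that were not called. Over *LYS20*, the antisense annotation of YDL182W had 311, 388, 475 and 577 raw counts in *rrp6Δ* libraries, against 49, 36, 58 and 27 in WT libraries (log2 fold change 2.84). Among the *rrp6Δ* libraries replicate 4 had the most antisense and the least sense counts, and replicate 1 the least antisense and the most sense counts. The order of the sense counts was not particular to *LYS20*. Replicate 1 was also the highest and replicate 4 the lowest *rrp6Δ* library for *LYS1*, *LYS2*, *LYS4*, *LYS9* and *LYS12*. Of these, *LYS4* alone had an antisense transcript annotated over it. With 4 libraries no correlation is given. The highest antisense log2 fold changes opposite other uncalled members were 4.79 for *HOM2*, 3.60 for *ARO1* and 3.30 for *ILV5*, all of the AST class. Raw counts in WT libraries were 3, 0, 0 and 0 for *HOM2*, 7, 11, 3 and 2 for *ARO1* and 3, 1, 0 and 0 for *ILV5*. In *rrp6Δ* libraries they were 41, 43, 29 and 19, then 148, 78, 129 and 71, and 23, 21, 15 and 3. The folds for *HOM2* and *ILV5* thus rest on almost no WT reads.

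Upstream on the same strand, 10 members had a noncoding transcript and 5 of them (9.80% of 51) had a transcript called higher, against 8.57% of all ORF-Ts, a share near that of the members. *ASN1* lies downstream of SNR45-RT, which had 1705, 1526, 2470 and 1306 raw counts in *rrp6Δ* libraries, against 45, 92, 90 and 21 in WT libraries, a log2 fold change of 4.19. SNR45-RT ends before the *ASN1* transcript and covers the TGACTC letters of the *ASN1* window, 227 bases before the start codon. CUT433 (5.07) lies inside SNR45-RT. TGACTC also lay within a same-strand noncoding annotation upstream of *TRP3* (CUT702, 2.15), *ARG7* (CUT769, 2.51) and *ASN2* (CUT155, -0.20, not called), and none of these 3 genes was called. Their part in any change of the ORF-Ts was not tested.

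**Figure D4:**
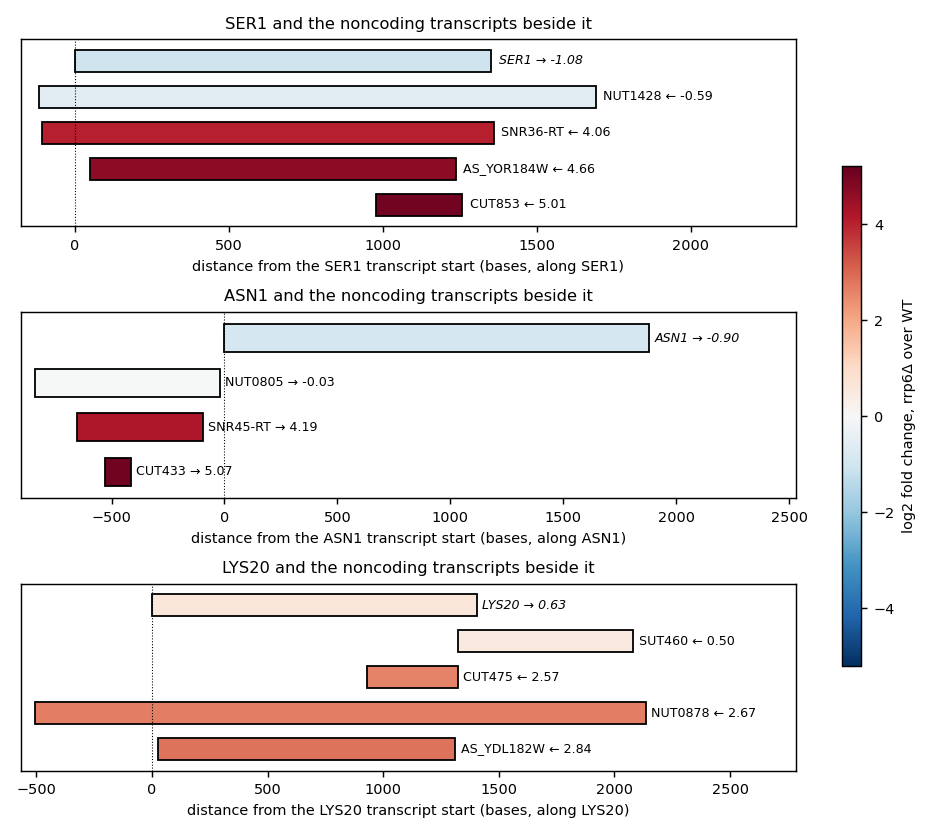
Positions of *SER1*, *ASN1* and *LYS20* and of the noncoding transcripts beside them, in bases from the start of each ORF-T along its direction, with arrows for the strand (right: same strand as the gene) and color and printed values for the log2 fold change, *rrp6Δ* over WT. SNR36-RT (4.06) covers *SER1* (-1.08) on the opposite strand, SNR45-RT (4.19) ends upstream of *ASN1* (-0.90), and the antisense of *LYS20* (2.84) covers nearly all of a gene at 0.63.

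Of 48 further genes of amino acid metabolism on the lists, 6 (12.5%) were called lower and 0 higher, close to the 14.3% of all ORF-Ts called lower. *GCN4* (YEL009C), the activator of general amino acid control, had normalized counts of 184, 101, 174 and 147 in *rrp6Δ* libraries, against 217, 242, 209 and 311 in WT libraries. The groups did not overlap and its mRNA fell by 0.69 on the log2 scale (SE 0.23, adjusted p = 0.04, edgeR), but with ORF-T factors the log2 fold change was -0.39 and not called. The call was also lost without *rrp6Δ* replicate 2 (-0.54) or WT replicate 4 (-0.48). Of 12 regulators, *GCN4* and the GATA factor *GLN3* (-0.67) were called lower. With ORF-T factors *GLN3* (-0.36) was not called either, and *ARG82* (0.86) was called higher. Of 16 other biosynthetic genes, *SHM2* (YLR058C), the cytosolic serine hydroxymethyltransferase that joins serine to glycine and one-carbon metabolism, and the proline genes *PRO2* (-0.70) and *PRO3* (-0.70) were called lower. With ORF-T factors *PRO2* (-0.39) and *PRO3* (-0.41) were not called, and *SHM2* (-1.07) was.

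*SHM2* had 79.1, 116, 85.6 and 99.0 normalized counts in *rrp6Δ* libraries, against 268, 253, 231 and 239.8 in WT libraries, with no overlap and a log2 fold change of -1.39 ± 0.19 (SE, adjusted p = 0.000392, edgeR). Of 12 amino acid permeases 0 were called in either direction, and 0 had an unadjusted p under 0.05, but *DIP5* (0.66) was called higher with ORF-T factors and *GAP1* (-0.71) lower with the replicate block. Of 8 genes of amino acid breakdown, *CAR2* (YLR438W), ornithine transaminase, was called lower, with 19.6, 7.69, 12.2 and 12.7 normalized counts in *rrp6Δ* libraries, against 21.1, 22.5, 23.1 and 39.4 in WT libraries and a log2 fold change of -1.01, a call that was kept with ORF-T factors (-0.71) and lost with library totals.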

How the data were processed

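RNA-Seq of rRNA-depleted total RNA from 4 *rrp6Δ* and 4 WT libraries was analysed from the deposited table. Strand-specific SOLiD reads had been aligned by the authors (bfast, sacCer3) and assigned to transcripts with bamutils. A mapping with and a mapping without rRNA and tRNA reads are described, and the mapping behind the table is not named. The authors deposited raw counts, the values analysed, and a normalized signal that was not used. The log2 fold changes, p-values and FDRs of the authors' own edgeR comparison are also deposited and were not used.

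The strains were compared with edgeR 4.0.16 in R 4.3.3 (glmQLFit and glmQLFTest, TMM over all 10054 transcripts, no filter) and DESeq2 1.42.0 as an alternative. P-values were adjusted over all transcripts. TMM factors lay between 0.735 and 1.37, 3 counts correspond to between 0.183 and 0.444 normalized counts, and ORF-Ts held between 46.2% and 62.7% of counts. Standard errors are the log2 fold change divided by the square root of F. Isozyme ratios used a pseudocount of 1, in Python 3.11.15 with scipy 1.17.1. The fitting script was first tested on simulated data. Sequences come from RefSeq R64.

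Libraries with the same replicate number deviated together in all 4 pairs (correlations between 0.373 and 0.548 for same numbers, between -0.373 and 0.008 for others), so the numbers were taken as pairing the libraries on the evidence of the data. The members and lists were chosen with earlier results of these data known. Values in every library are given for *HIS3*, *LYS2*, the 6 largest called falls, both genes of each isozyme pair, the members with the highest and lowest WT level, *GCN4* and the largest called change of each further list. *SER2*, *LYS12* and the other genes with values beyond this rule were chosen after their values were seen.

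Alternatives were DESeq2, TMM from ORF-Ts only, library totals alone, filterByExpr, a minimum of 10 counts in every library, the replicate block, each library left out, an FDR of 0.05, folds relative to the ORF-T median, a pseudocount of 0.5 and an overlap of 50 bases.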

Additional observations from a re-analysis of the deposited data

Results flagged for a closer look

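Within groups of 4 libraries, 6 of 104 groups of normalized counts over members and isozyme partners held a library beyond Dixon's critical value, which is set so that chance flags about 1 in 20. In *rrp6Δ*, replicate 1 stood apart for *TRP5* (369.5, nearest 305.4), replicate 3 for *BAT1* (150.9, nearest 74.5) and replicate 4 for *ARO2* (292.1, nearest 227.7). In WT, replicate 2 stood apart for *ARG1* (250.3, nearest 52.2) and for *GLN1*, where it was low (429.1, nearest 584.2), and replicate 4 for *ILV1* (49.4, nearest 27.8). Without WT replicate 2 the log2 fold change of *ARG1* was -0.58 and was not called.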

How the results depend on the processing

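The number of members called lower was 15. It was 8 with TMM from ORF-Ts only, 8 with these factors and the replicate block, 8 with folds taken relative to the ORF-T median, 5 with at least 10 counts in every library and 3 with library totals alone, which moved the ORF-T median by 0.355. With one library left out it lay between 10 and 17. The number called higher was 0, and was 2 with TMM from ORF-Ts only, 2 with library totals, 3 with the block and ORF-T factors, and between 0 and 3 with one library left out. The median log2 fold change of the members was -0.49, and was -0.18 with ORF-T factors, -0.27 with the minimum of 10 counts, -0.13 with library totals, -0.18 with block and ORF-T factors, and between -0.55 and -0.35 with one library left out. The number of ORF-Ts called lower was 820, 153 with ORF-T factors, 279 with these factors and the block and 303 with folds relative to the ORF-T median. It was 109 with the minimum of 10 counts, 85 with library totals and between 389 and 920 with one library left out. The number of ORF-Ts called higher was 120, 219 with ORF-T factors, 222 with library totals and 306 with the block and ORF-T factors. With one library left out it lay between 91 and 143. WT replicate 2 and *rrp6Δ* replicate 1 were also left out together, a choice made after seeing the data. This gave 15 members lower, 12 of them shared with the 15, and 0 higher, against 614 and 105 ORF-Ts. The replicate block by itself gave 18 lower, adding *ARG4*, *BAT1* and *HOM3*, and changed no other call of a member.

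Log2 fold changes of uncalled genes changed sign. *LEU4* was 0.0069 and 0.063, *ARO3* 0.23 and 0.30, *ARO4* 0.11 and 0.18 and *SER3* 0.24 and 0.34 with ORF-T factors and with library totals. *LYS21* was 0.049 with library totals. With the minimum of 10 counts *ARO3* was 0.14, *ARO4* 0.028 and *SER3* 0.15. With block and ORF-T factors *ARO3* was 0.18, *ARO4* 0.10 and *SER3* 0.35, and *SER3* was 0.046 with the block alone. With one library left out *LEU9* lay between -0.00012 and 0.48, *ARO3* between -0.20 and 0.066, *SER3* between -0.25 and 0.42 and *GDH3* between -0.40 and 0.67. For the isozyme pairs, exact permutation p-values with one library left out lay between 0.0571 and 0.971, where 3 against 4 libraries allow none below 0.0571, so neither these tests nor the matched sign-flip test (smallest p 0.125) could pass. The cause of these shifts was not tested.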
